A study of Homo sapiens with 6 samples.

Results

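The AP-1 family of transcription factors was examined in K562 cells, a human chronic myeloid leukemia line grown in suspension, through 8 genes: FOS, FOSB, FOSL1, FOSL2, JUN, JUNB, JUND and BATF3. These genes were chosen by name, but with earlier results of these data known. All 8 were found among the 24960 genes of the deposited table, and 8 of 8 passed the filter on low counts. RNA was sequenced from 3 control libraries and from 3 libraries of cells given hyperoside, a flavonol glycoside of plants, at 2 mM. Both groups were the same unmodified cell line in the same medium, the labels name no vehicle for the control, and the length of treatment before RNA was taken is not given in the sources used here. Nothing in the labels says that the replicates came from separate cultures, so the p-values measure the spread between these libraries, which may be technical.

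AP-1 is a dimer of basic leucine zipper (bZIP) proteins that binds short DNA elements in promoters and enhancers. JUN proteins pair with each other or, more stably, with FOS proteins, whereas FOS proteins cannot pair among themselves, and BATF proteins lack the activation domains of FOS and compete for JUN partners. FOS, FOSB, JUN and JUNB are immediate early genes that growth factors, stress and phorbol esters switch on through MAP kinases. FOSL1 and FOSL2 follow later and persist longer, and JUND is made more steadily. In K562 cells, phorbol esters that induce AP-1 are known to drive megakaryocytic differentiation.

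The genes are spread over the genome, here on GRCh38 with the GENCODE 29 annotation. FOS lies at chr14:75278774-75282230, FOSB at chr19:45467995-45475179 and FOSL2 at chr2:28392448-28417312, all on the plus strand. FOSL1 lies at chr11:65892049-65900573 on the minus strand. JUN lies at chr1:58780788-58784327 and JUND at chr19:18279760-18281622, both on the minus strand, and JUNB lies at chr19:12791496-12793315 on the plus strand. BATF3 lies at chr1:212686418-212699985 on the minus strand. In the annotation the longest transcript has 4 exons for each of the 4 FOS genes, 2 for BATF3 and 1 for each of the 3 JUN genes, which have no intron there. Only JUNB shares exon sequence with another gene, the opposite-strand HOOK2, over 259 of 1820 exonic bases.

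Promoter sequence from RefSeq (GRCh38.p14) was at hand for 6 of the 8 genes, namely FOS, FOSB, FOSL2, JUN, JUNB and JUND, and the 250 bases before each transcript start were searched on both strands. The cAMP response element (CRE) TGACGTCA is bound by CREB and ATF factors, and its core TGACGT is part of it. The core was found in 4 of these 6 promoters, against 7.10% of 35116 promoters of the same length. The form TGACATCA, through which JUN dimers and ATF2 act on the JUN gene, was found in 1 of the 6. That was JUN itself, where its known role already places it, and 2.37% of all promoters hold it. The motifs were chosen with the members' sequences in view, so these shares are descriptions and not a test. The matches are shown so that they can be compared between the genes, with the match in capitals and each sequence read in the direction of the gene.
FOS: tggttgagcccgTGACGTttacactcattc
FOSB: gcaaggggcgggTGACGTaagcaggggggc
FOSL2: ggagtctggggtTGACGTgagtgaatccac
JUN: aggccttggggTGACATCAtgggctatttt
JUND: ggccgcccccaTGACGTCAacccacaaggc

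These windows lie at chr14:75278752-75278781 (plus strand) for FOS, chr19:45467924-45467953 (plus) for FOSB, chr2:28392780-28392809 (plus) for FOSL2, chr1:58784096-58784125 (minus) for JUN and chr19:18281804-18281833 (minus) for JUND. The match began 64 bases before the RefSeq start in FOS, 60 in FOSB, 66 in FOSL2 and 67 in JUN. In JUND the full CRE began 200 bases before the start, and a further core on the reverse strand lay nearer to it. GENCODE 29 starts some transcripts farther upstream, so 8 of the 30 bases shown for FOS, 8 of those for FOSL2 and all 30 of those for JUN lie inside an annotated exon there. The classical AP-1 element TGACTCA, known as the TRE, was found in 0 of the 6 windows and in 4.20% of all promoters. JUNB held none of these elements in its window. These matches describe letters and do not show binding.

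**Figure D1:**
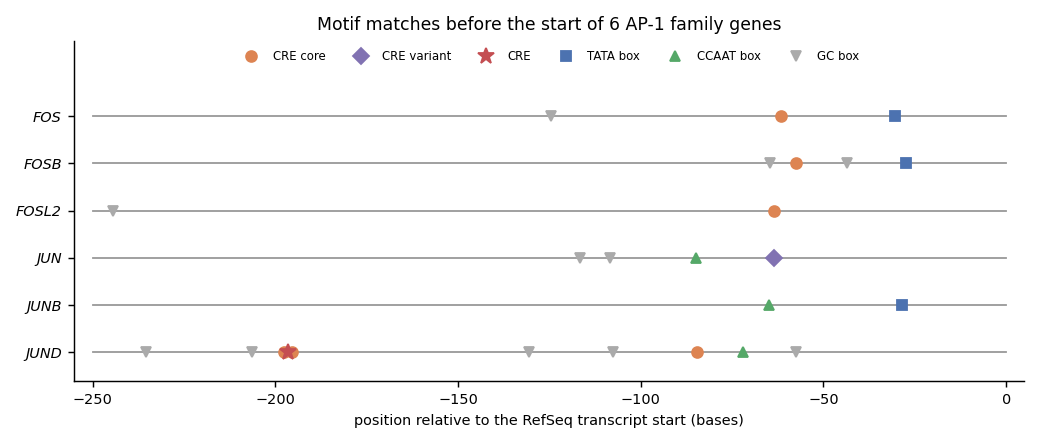
Positions of motif matches in the 250 bases before the RefSeq transcript start of 6 AP-1 family genes, with the distance from the start in bases on the horizontal axis and 1 line per gene. The CRE core or its variant begins between 60 and 67 bases before the start in FOS, FOSB, FOSL2 and JUN, and the TATA box (TATAAA) lies nearer to the start in FOS, FOSB and JUNB.

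Each library held between 35613283 and 36754725 gene counts, and TMM normalization factors lay between 0.957 and 1.03. Values are given as normalized CPM, counts scaled to the normalized library total, and changes as log2 fold changes. P-values come from the quasi-likelihood test of edgeR, adjusted by Benjamini-Hochberg over all 15095 tested genes. The erythroid markers of K562 were present, with 1954 to 2564 summed CPM over 6 genes in the control libraries and 1348 to 1551 with hyperoside, where HBG1 and HBG2, the fetal globin genes, were lower and KLF1 was higher. Of 4 lymphoid markers MS4A1 was at 0 counts in the control group. CD3D was measured at 33.1 CPM there and rose by 0.29 on the log2 scale (edgeR adjusted p = 0.0249). Of 3 monocytic markers LYZ stood at 52.8 CPM in the control group and CD14 had 1 to 5 counts per control library. CSF1R had 16, 5 and 6 counts in the control replicates against 35, 30 and 34 in the hyperoside replicates. Its log2 fold change was 1.81 (edgeR adjusted p = 0.0123), and it met the filter on low counts through the hyperoside libraries. For the labelled tissue, bone, 4 stromal and bone markers summed to 4.81 to 6.43 CPM in the control libraries and 4.35 to 5.72 CPM with hyperoside. Among them the collagen gene COL1A1 had 91 to 111 control counts and fell by 0.99 on the log2 scale (edgeR adjusted p = 0.00711), COL1A2 had 72 to 138 counts over the 6 libraries, DCN 9 to 25 and BGLAP, the osteocalcin gene, 0 to 7. The summed monocytic markers, mostly LYZ, moved with the treatment, from 51.3 to 55.6 CPM in the control libraries to 74.2 to 79.2 in the hyperoside libraries, and the part of such genes in the results below was not tested.

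Of the 8 AP-1 genes, 7 rose in the hyperoside group and 1, BATF3, fell at an adjusted p under 0.05. Over all tested genes 22.1% were called higher and 23.2% lower by the same rule. Without control replicate 2 the call remained for 5 of the 8, with FOSB, JUNB and JUND lost. Calls over all tested genes were also fewer then, with 2888 higher and 3045 lower of 15570, against 3333 and 3508 of 15095. In RNA from bulk cells, a change in the share of cells that express a gene cannot be told apart from a change in RNA per cell. With the study's additional demand of a fold change above 2, FOSL1 and FOSL2 were called higher and BATF3 lower, against 6.43% and 3.76% of all tested genes. BATF3 met the filter on low counts through the control libraries, where it was higher, and all counts here that include it carry that limit. In 7 of the 8 genes the CPM of the groups did not overlap, against 54.4% of all tested genes, and JUND was the exception. Higher without overlap were 6 of the 8, against 27.1% of all tested genes. The 8 genes were chosen with earlier results of these data known, so these comparisons with all tested genes are descriptions and not a test. The median log2 fold change over the 8 genes was 0.64, and over all tested genes it was 0.003.

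**Figure D2:**
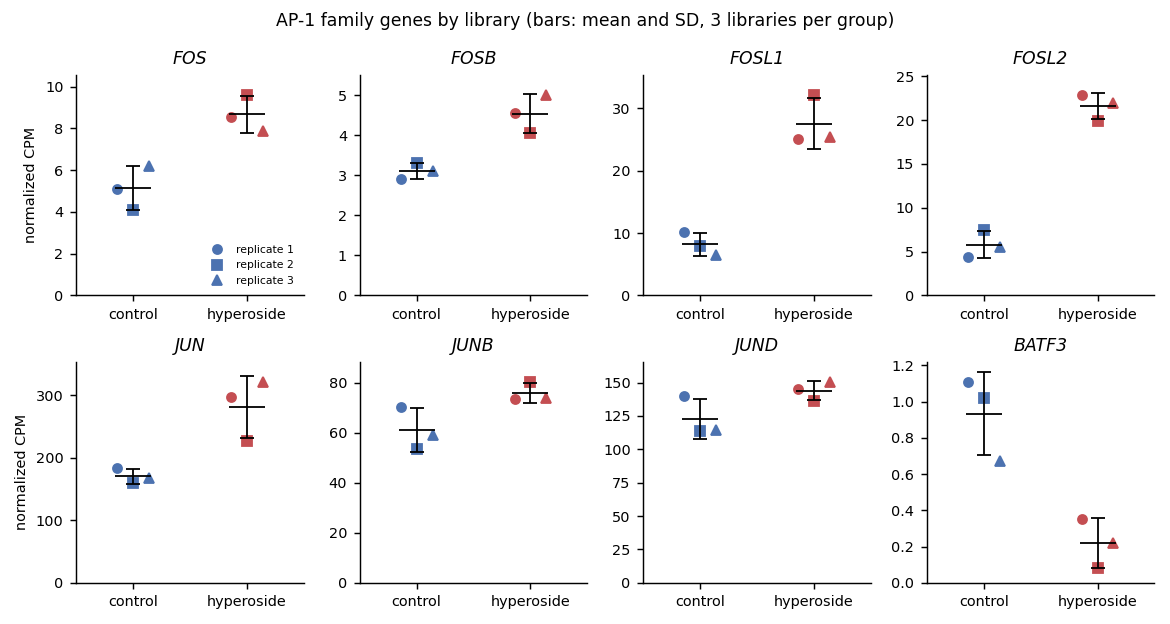
Normalized CPM of each AP-1 family gene in the 6 libraries, with 1 panel per gene and its own linear axis from 0. Symbols mark replicates 1 to 3, and the black bars give the mean and SD of 3 libraries; the groups overlap in JUND, and BATF3 is the one gene that is lower in the hyperoside libraries.

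The Fos-related antigens FOSL1 (Fra-1) and FOSL2 (Fra-2) showed the largest rises of the family. FOSL1 had 10.2, 7.87 and 6.55 CPM in control replicates 1, 2 and 3, and 25.1, 32.2 and 25.3 CPM in hyperoside replicates 1, 2 and 3. Every hyperoside library lay above every control library, and hyperoside replicate 2 stood above the other two. The means were 8.20 ± 1.84 and 27.5 ± 4.02 CPM (SD, n = 3 libraries each), a 3.36-fold rise or 1.75 on the log2 scale (standard error 0.15, edgeR adjusted p = 5.18e-08). FOSL2 had 4.38, 7.41 and 5.51 CPM in the control replicates against 22.9, 19.9 and 22.0 CPM in the hyperoside replicates. Here control replicate 1 was the lowest library and hyperoside replicate 1 the highest. Its means were 5.77 ± 1.53 and 21.6 ± 1.52 CPM (SD, n = 3 each), a 3.74-fold rise or 1.90 on the log2 scale (standard error 0.16, edgeR adjusted p = 3.74e-08). By log2 fold change FOSL2 ranked 264 and FOSL1 343 from the highest of the 15095 tested genes. On the log2(FPKM + 1) scale, where the added 1 shrinks low values, the difference of FOSL2 was 1.09.

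FOS and FOSB, the immediate early members on the FOS side, rose less. FOS, the gene of c-Fos, had 5.12, 4.09 and 6.21 CPM in the control replicates against 8.53, 9.61 and 7.86 CPM in the hyperoside replicates. The groups stayed apart, with hyperoside replicate 2 again the highest library. The log2 fold change of FOS was 0.75 (standard error 0.18, edgeR adjusted p = 0.00194), a 1.69-fold rise. FOSB had 2.90, 3.30 and 3.11 CPM in the control replicates against 4.55, 4.06 and 5.01 CPM in the hyperoside replicates. Its 6 libraries did not overlap between the groups, with the highest control library at 3.30 and the lowest hyperoside library at 4.06 CPM. The log2 fold change of FOSB was 0.55 (standard error 0.20, edgeR adjusted p = 0.0350), and its 95% interval ran from 0.12 to 0.98. This call was lost when any library other than hyperoside replicate 2 was left out, with adjusted p-values of 0.0541 to 0.108, with a replicate block (adjusted p = 0.0570) and with no filter on low counts (0.0505).

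JUN, the gene of c-Jun and the partner that gives the FOS proteins their DNA-binding dimer, showed the largest rise on the JUN side. It had 183.9, 159.4 and 167.8 CPM in the control replicates against 297.2, 226.6 and 321.6 CPM in the hyperoside replicates. The treated libraries were all higher, and hyperoside replicate 2, the highest in FOS and FOSL1, was the lowest of the 3 in JUN. The means were 170.4 ± 12.5 and 281.8 ± 49.4 CPM (SD, n = 3 each), and the log2 fold change was 0.73 (standard error 0.10, edgeR adjusted p = 1.55e-05), a 1.65-fold rise. The call held in all 13 alternatives run for JUN, with values of 0.63 to 0.86.

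JUNB and JUND, which are weaker activators than c-Jun and often oppose it in cell growth, rose by small amounts. JUNB had 70.5, 53.4 and 59.1 CPM in the control replicates against 73.5, 80.3 and 73.8 CPM in the hyperoside replicates. Control replicate 1 came within a few CPM of the treated libraries without reaching them. The log2 fold change of JUNB was 0.31 (standard error 0.10, edgeR adjusted p = 0.0120). Without control replicate 2 its edgeR adjusted p was 0.0899, and without hyperoside replicate 2 it was 0.0627. How reads from the exon sequence shared with HOOK2 were counted is not known, because no source used here says how strand or overlaps were treated. HOOK2 itself had 17.0 ± 1.19 and 14.3 ± 0.59 CPM (SD, n = 3 each) with an edgeR adjusted p of 0.0706.

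JUND had 139.8, 114.0 and 114.1 CPM in the control replicates against 145.6, 136.0 and 150.5 CPM in the hyperoside replicates. Control replicate 1 lay above hyperoside replicate 2, so the groups overlapped. Its log2 fold change was 0.23 (standard error 0.08, edgeR adjusted p = 0.0328), with a 95% interval of 0.05 to 0.41. The call was lost without control replicate 2 (edgeR adjusted p = 0.158), without control replicate 3 (0.133), without hyperoside replicate 1 (0.103) and without hyperoside replicate 3 (0.105, also edgeR). Control replicate 1 was the highest control library for all 3 JUN genes.

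BATF3, a short bZIP protein best known from the development of cross-presenting dendritic cells, was the member that fell, and it was close to the floor of this depth. Its counts were 39, 36 and 24 in the control replicates against 13, 3 and 8 in the hyperoside replicates. It met the filter on low counts through the control libraries, so it was tested only because it was higher there. In CPM the means were 0.93 ± 0.23 and 0.22 ± 0.14 (SD, n = 3 each), and the log2 fold change was -2.07 (standard error 0.57, edgeR adjusted p = 0.00661) and a wide 95% interval of -3.28 to -0.87. With log2(FPKM + 1) the difference was -0.55, since all its FPKM values lie below the added 1.

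**Figure D3:**
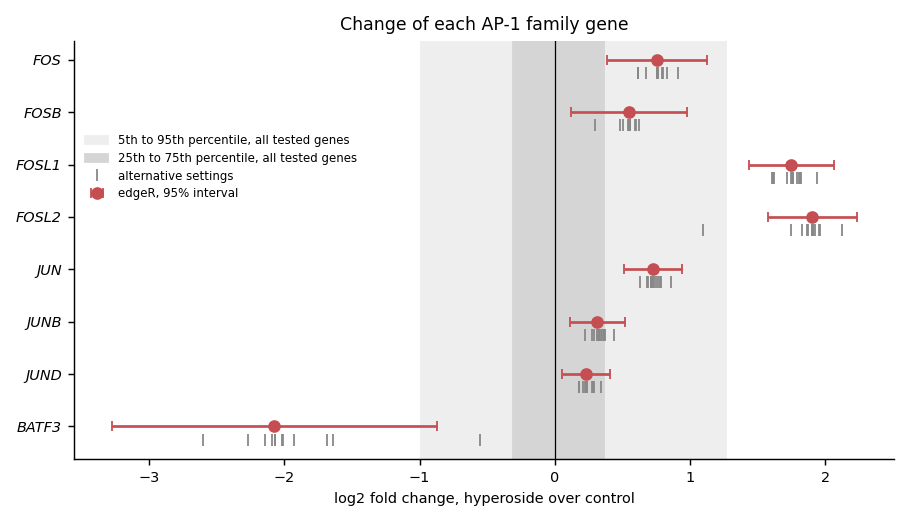
Log2 fold change of each AP-1 family gene, hyperoside over control, as edgeR's estimate with its 95% interval (circles and bars) and as the values under 13 alternatives (ticks). Grey bands span the 5th to 95th and the 25th to 75th percentile of all 15095 tested genes, -0.99 to 1.26 and -0.31 to 0.36; FOSL1 and FOSL2 lie above the outer band and JUNB and JUND inside the inner one.

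Levels were compared between genes on the deposited FPKM values, which divide by gene length. In the control group the order was JUND with 62.4 ± 6.05 FPKM, JUN with 51.4 ± 2.85, JUNB with 32.7 ± 4.02, FOSL1 with 4.72 ± 0.94 and FOS with 2.40 ± 0.53 (SD, n = 3 libraries each). Each of these lay apart from its neighbours in all 3 libraries. FOSB with 0.81 ± 0.07 FPKM, BATF3 with 0.72 ± 0.17 and FOSL2 with 0.65 ± 0.18 followed (SD, n = 3 each), and their ranges overlapped. In the hyperoside group JUN stood first with 87.9 ± 15.2 FPKM and JUND next with 75.9 ± 3.71 (SD, n = 3 each), and their ranges overlapped there. JUNB with 42.1 ± 2.17 FPKM, FOSL1 with 16.5 ± 2.41, FOS with 4.19 ± 0.44, FOSL2 with 2.50 ± 0.18, FOSB with 1.22 ± 0.12 and BATF3 with 0.18 ± 0.11 completed the order without overlap (SD, n = 3 each). FOSL2 thus moved from the lowest mean of the family to a place above FOSB. The gene lengths behind the FPKM values ran from 1263 bases for BATF3 to 8787 for FOSL2. The longest GENCODE 29 transcript has 2357 bases for BATF3 and 6708 for FOSL2. The ranks of FOSL2 and BATF3, and which of them was lowest in the control group, thus depend on the length the authors used.

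Summed over the 4 FOS genes, the level was 9.26, 8.19 and 8.28 FPKM in control replicates 1, 2 and 3, and 23.2, 27.3 and 22.6 FPKM in hyperoside replicates 1, 2 and 3. The sum of JUN, JUNB and JUND was 160.2, 135.6 and 143.5 FPKM in the control replicates against 211.9, 187.1 and 219.0 FPKM in the hyperoside replicates. The FOS-side sum was 2.84 times and the JUN-side sum 1.41 times its control mean. Of the FPKM summed over the 8 genes, the FOS side held 5.44, 5.66 and 5.44% in the control replicates against 9.85, 12.7 and 9.36% in the hyperoside replicates. Most of that shift lay in FOSL1, whose share went from 3.02 ± 0.43% to 7.20 ± 1.54% (SD, n = 3 each). JUND, which held 40.0 ± 0.92% in the control group, held 32.9 ± 0.45% in the hyperoside group (SD, n = 3 each) although its own level was higher. The share of FOSB was 0.52 ± 0.08% and 0.53 ± 0.02% (SD, n = 3 each). These sums and shares are descriptions with no test, and RNA shares say nothing of the proteins.

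**Figure D4:**
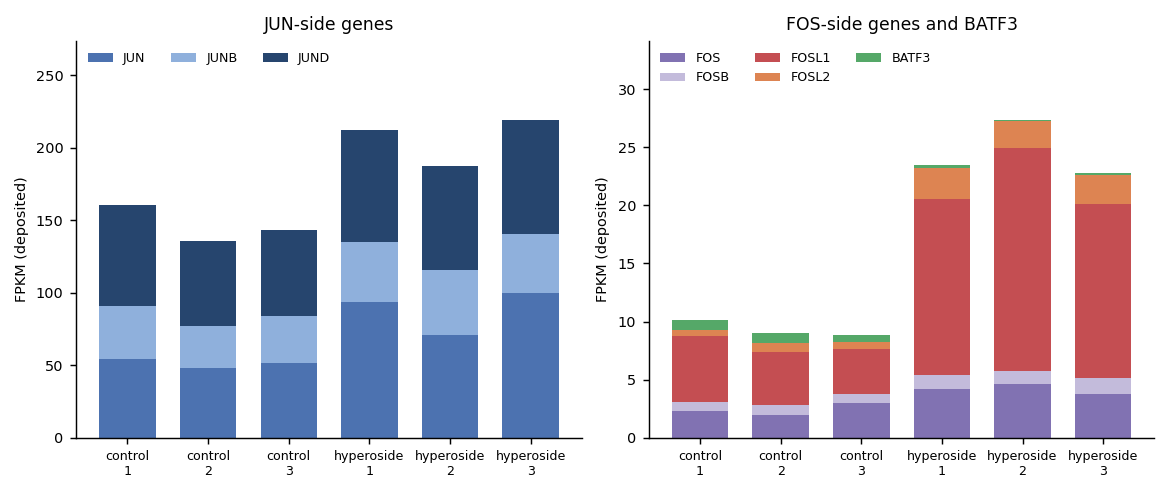
Deposited FPKM of the AP-1 family genes stacked in each of the 6 libraries, with JUN, JUNB and JUND on the left and the 4 FOS genes with BATF3 on the right, on separate linear axes from 0. FOSL1 makes up most of the taller stacks on the right, which reach 22.6 to 27.3 FPKM for the 4 FOS genes in the hyperoside libraries.

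Profiles over the 6 libraries were compared by the Euclidean distance between mean-centred log2 CPM values, so that a distance of 0 means the same rises and falls. Within the family, JUNB and JUND were the closest pair (0.25), followed by FOSB and JUN (0.39), while FOSL1 and FOSL2 were each other's nearest member (0.98). Among 12832 other tested genes with a mean of at least 1 CPM, the gene closest to JUN was DUSP1 (0.14), an immediate early phosphatase that inactivates MAP kinases, followed by CNN1 (0.16). Those closest to FOSL2 were KIT (0.23), the stem cell factor receptor, and EVI2B (0.28). For FOSL1 they were CD2BP2-DT (0.17) and LOC101928126 (0.24), and for FOS they were DYRK1B (0.14) and ANKMY1 (0.17). The nearest genes were TPP1 (0.10) and TIPARP-AS1 (0.10) for FOSB, LRWD1 (0.06) and ZNF579 (0.09) for JUNB, RFXANK (0.06) and NECAB3 (0.07) for JUND, and GPC2 (0.60) and PPM1J (0.66) for BATF3. These distances describe 6 libraries in 2 groups, and with many candidates some genes lie close to any profile.

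Of 9 listed genes for other bZIP proteins that pair with FOS or JUN, 7 were tested, 1 rose and 3 fell, against 22.1% higher and 23.2% lower over all tested genes. Their median log2 fold change was -0.01. ATF3, a stress-induced partner of JUN, fell from 120.4 ± 12.4 to 41.0 ± 6.88 CPM (SD, n = 3 each), and its log2 fold change was -1.55 (standard error 0.11, edgeR adjusted p = 4.88e-09). JDP2, a repressor that dimerizes with JUN proteins, fell by 1.26 on the log2 scale (edgeR adjusted p = 2.22e-05). BATF, a relative of BATF3, had 54, 25 and 31 counts in the control replicates against 85, 63 and 84 in the hyperoside replicates, and its log2 fold change was 1.03 (standard error 0.35, edgeR adjusted p = 0.0241). Leaving out control replicate 2 or hyperoside replicate 1 left 2 calls in this list, ATF3 and JDP2. BATF was also lost without control replicate 3 and without hyperoside replicate 3, with edgeR adjusted p-values of 0.0677 to 0.0945 over these 4 omissions. MAF had 0 to 4 counts per library.

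Among the MAP kinases and their effectors that act upstream of AP-1, 15 of 16 listed genes were tested, 1 rose and 4 fell, with a median log2 fold change of -0.06. Among all tested genes 22.1% were called higher and 23.2% lower. RPS6KA5, the gene of a kinase that phosphorylates CREB and histone H3, had a log2 fold change of -0.53, MAPK3, which encodes an ERK kinase, of -0.44 and MAP2K4, a kinase upstream of JNK, of 0.36, with edgeR adjusted p-values of 0.00927, 4.30e-04 and 0.00568. The call of RPS6KA5 was lost with limma on log2(FPKM + 1), at -0.10 (adjusted p = 0.131), and on log2(FPKM + 0.1), at -0.35 (adjusted p = 0.166). MAP2K1, an activator of ERK, had -0.26 with an edgeR adjusted p of 0.00602. Other abundant genes of the list did not pass the test, with log2 fold changes of -0.12 for MAPK14, 0.05 for MAP2K2 and 0.17 for RPS6KA3. MAPK10, a JNK gene mainly of neurons, had 0 to 2 counts per library.

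Serum response factor (SRF) and its ternary complex partners switch on FOS and other immediate early genes. Of these 6 genes 1 fell, ELK4, from 69.0 ± 14.7 to 47.6 ± 4.32 CPM (SD, n = 3 each) with a log2 fold change of -0.53 (edgeR adjusted p = 0.00178), and SRF itself had 0.12 (edgeR adjusted p = 0.273). The call of ELK4 was lost with limma on log2(FPKM + 1) and log2(FPKM + 0.1), with adjusted p-values of 0.0680 and 0.0591. The median of the list was 0.02, and over all tested genes 22.1% were called higher and 23.2% lower. Among 4 genes for the turnover of JUN protein, only COP1, a ubiquitin ligase for c-Jun, passed the test. It rose by a log2 fold change of 0.23 (standard error 0.08, edgeR adjusted p = 0.0239), where 22.1% of all tested genes were called higher. That call was lost without hyperoside replicate 1 or hyperoside replicate 3 and with a replicate block. Transcript levels do not show kinase activity or protein stability.

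Other immediate early genes are induced by the same signals along with FOS and JUN. Of 27 listed genes 21 were tested, 9 rose, 3 fell and 9 did not pass the test, with a median log2 fold change of 0.13. Over all tested genes the calls were 22.1% higher and 23.2% lower. SGK1, a serum- and glucocorticoid-induced kinase, had the largest rise, from 21.7 ± 4.07 to 76.8 ± 10.2 CPM (SD, n = 3 each), and its log2 fold change was 1.82 (edgeR adjusted p = 4.70e-09). EGR1, a zinc finger factor induced through SRF, had 2364, 1339 and 1608 counts in the control replicates against 4442, 6391 and 3828 in the hyperoside replicates. Hyperoside replicate 2 was the highest library here too, as in FOS and FOSL1, and the log2 fold change was 1.42 (standard error 0.17, edgeR adjusted p = 3.65e-06). BTG2, an antiproliferative gene, rose by 0.80 (edgeR adjusted p = 7.29e-07). KLF2 fell by 1.82 on the log2 scale, from 26 to 34 counts in the control replicates to 4 to 15 in the hyperoside replicates (edgeR adjusted p = 0.0140), and its call was lost without control replicate 2, hyperoside replicate 1 or hyperoside replicate 2 (edgeR adjusted p = 0.0531 to 0.0748). Like BATF3, KLF2 met the filter on low counts through the control libraries, where it was higher. Several abundant genes of this list did not pass the test, with log2 fold changes of -0.05 for IER2, 0.04 for IER5, 0.13 for KLF6, -0.15 for MCL1 and 0.09 for PPP1R15A. Without control replicate 1, MCL1 passed at -0.22 (edgeR adjusted p = 0.00665). The sign of IER2 and of IER5 changed among the alternatives. CCN2 had 0 or 1 count, DUSP2 0 or 1 and NR4A3 0 to 6 per library.

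Of 18 genes known in other cells as AP-1 targets, 12 were tested, 6 rose and 2 fell, with a median log2 fold change of 0.46, where 22.1% of all tested genes were called higher and 23.2% lower. CXCL8, the neutrophil chemokine interleukin-8, had 8.31 ± 1.12 CPM without and 19.5 ± 2.13 with hyperoside (SD, n = 3 each), and its log2 fold change was 1.23 (edgeR adjusted p = 8.58e-07). CD44, a hyaluronan receptor, rose by 0.77 (edgeR adjusted p = 8.85e-07). EZR, the gene of ezrin and the most abundant of the list, rose from 326.4 ± 7.86 to 450.2 ± 3.25 CPM (SD, n = 3 each), and its log2 fold change was 0.46 (edgeR adjusted p = 1.42e-05). TIMP1, an inhibitor of matrix metalloproteinases, had a log2 fold change of -0.36 (edgeR adjusted p = 0.00171). IL6 had 112, 141 and 147 counts in the control replicates against 63, 123 and 66 in the hyperoside replicates, and its log2 fold change of -0.71 passed the test (edgeR adjusted p = 0.0396) although the groups overlapped. That call was lost in 7 of 13 alternatives, among them the omission of control replicates 2 and 3 and of hyperoside replicates 1 and 3, each alone (edgeR adjusted p = 0.0963 to 0.158). The matrix metalloproteinase targets most often used as AP-1 readouts were near the floor, with MMP3 and MMP10 at 0 counts in all 6 libraries, which allows up to 3 counts in each, and MMP1 at 1 to 15 counts.

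**Figure D5:**
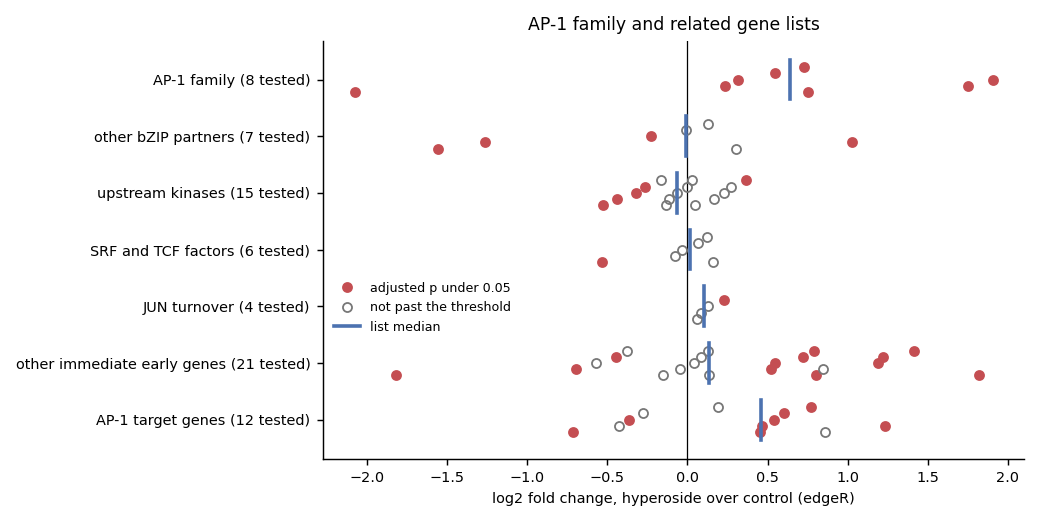
Log2 fold change, hyperoside over control, of each tested gene of the AP-1 family and 6 related lists, with 1 row per list, filled circles for genes past the adjusted p threshold of 0.05, open circles for the others and a blue line at the list's median. The AP-1 family has 7 filled circles above 0 and 1 below. The medians of the other lists are -0.06 for the upstream kinases, -0.01 for the other bZIP partners and 0.02 for the SRF and TCF factors. They are 0.11 for JUN turnover, 0.13 for the other immediate early genes and 0.46 for the AP-1 target genes.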

How the data were processed

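RNA of K562 cells was sequenced on an Illumina HiSeq instrument in 6 libraries. The submitters' notes name fastp, HISAT2, HTSeq and hg38, and the annotation and use of strand are not given in the sources used here. The authors deposited raw counts per gene and FPKM values, which divide the same counts by gene length and library total. Groups and replicate numbers came from the sample labels. The fit to the counts used edgeR 4.0.16 in R 4.3.3: filterByExpr (minimum count 10, minimum total 15), TMM, and the quasi-likelihood test with condition as the only term, adjusted by Benjamini-Hochberg over 15095 genes, which held 99.9% of all counts. The study used the DESeq package; DESeq2 1.42.0 and limma 3.58.1 on log2(FPKM + 1) or log2(FPKM + 0.1) served as alternatives. The fit was tested on simulated counts. The standard error is the log2 fold change divided by the square root of F. Where a library had 0 counts, a level of up to 3 was taken as possible, from counting error alone. The members and lists were chosen with earlier results of these data known, and the promoter motifs with the members' sequences in view. From each list, the text names the called genes with the 3 largest changes, genes with a mean above 100 CPM, and genes near 0 counts, and for each called member the 2 genes with the nearest profile. HOOK2, SRF, MMP1, HBG1, HBG2, KLF1, CD3D, LYZ, CSF1R and the collagen genes, DCN and BGLAP, outside this rule or in marker lists, were named after their values were seen. Some listed genes that this rule would name are counted in their lists but not reported here. The annotation columns of the tables were not used here.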

Additional observations from a re-analysis of the deposited data

How the results depend on the processing

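The 8 AP-1 genes kept their direction in all 13 alternatives run for each. FOS, FOSL1, FOSL2, JUN and BATF3 kept their call in each of these, whereas FOSB lost it in 7, JUND in 4 and JUNB in 2. BATF3 met the filter on low counts through the control libraries. Only DESeq2 and the fit with no filter did not use that filter, so the other alternatives carry the same limit for BATF3. The number of AP-1 genes called, 8, was 3 with a fold change above 2 required and 5 to 7 with 1 library left out, where 5 came without control replicate 2, which removed FOSB, JUNB and JUND. Over all tested genes, 15435 to 15570 with 1 library left out, these omissions gave 2700 to 3549 calls higher and 2858 to 3618 lower, against 3333 and 3508 of 15095. With the same omissions the other bZIP partners gave 2 to 4 calls and the JUN turnover genes 0 to 1. The replicate numbers did not pair the libraries (correlations of same-numbered deviations -0.08, -0.03 and -0.03). With a replicate block 7 AP-1 genes and 0 JUN turnover genes were called, where 3026 of all 15095 tested genes were called higher and 3103 lower. With limma on FPKM, 0 of the SRF and TCF factors were called with either added value. Of all 15095 tested genes, limma called 3563 higher and 2783 lower with 1 added, and 3562 and 2814 with 0.1 added. IER2, not called at -0.05, was at 0.0051 with library totals only, 0.0084 and 0.00854 with limma on FPKM with 1 or 0.1 added, 0.00866 without hyperoside replicate 3 and 0.0878 without control replicate 1, with -0.13 as its lowest value. IER5, not called, was at -0.0191 without hyperoside replicate 3 and at 0.13 at most. The FOS-side share of the control group was 5.92% with counts not divided by length, against 5.51%. Depth limits BATF3, MAF and the metalloproteinase genes, and the cause of the lost calls was not tested.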
